A study of Mus musculus with 4 samples.

Results

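The 38 genes described here encode the core machinery of autophagy and a group of mitophagy factors, and were taken by symbol from a list of the pathway's components that was drawn up with earlier results of these data known. All 38 were found among the 24346 gene symbols measured, and all 38 were abundant enough to be tested, which required a mean level of 1 FPKM or more. FPKM, fragments per kilobase of transcript and per unit of mapped depth, is a level corrected for transcript length and library size. The 4 RNA-seq libraries were made from cells of the mouse colon carcinoma line MC38, 2 of them under the label Arid5a knockout (KO) and 2 under the label wild type (WT), with no treatment given in the labels. The labels do not say how the knockout was made, how many clones it represents, or whether the 2 libraries of a group came from separate cultures. Values marked KO or WT are those of the libraries so labelled, in the order replicate 1 and 2. The p-values measure the spread between these libraries, which may be technical.

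Autophagy encloses cytoplasm in a double membrane, the autophagosome, and delivers it to the lysosome for breakdown. The ULK1 kinase complex starts the process, a PI3-kinase complex marks the membrane with a lipid, ATG9 and ATG2 proteins supply membrane, and 2 conjugation systems attach proteins of the ATG8 family, LC3 and GABARAP, to it. Cargo receptors bind both ATG8 proteins and their cargo, and in mitophagy the cargo is the mitochondrion. The mitophagy receptors BNIP3 and BNIP3L (NIX) sit in the outer mitochondrial membrane and are known as hypoxia-induced genes in many cell types.

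Arid5a, the targeted gene, went against the labels. It was at 2.16 and 1.77 FPKM in the KO-labelled libraries, against 0.225 and 0.124 FPKM in the WT-labelled libraries, a log2 change of 1.33 ± 0.13 (SE; adjusted p = 0.0013 with limma). The log2(FPKM + 1) scale used understates this change at such low levels, since the means differed 11.3-fold. Every direction below therefore refers to the labels as deposited and is not read as an effect of losing Arid5a. Loss of the gene's function in either group was not tested. Whether the labels of the groups were exchanged was not tested, and if they were, every direction would turn round. Of all 10827 tested genes, 47.6% were called with limma (Benjamini-Hochberg adjusted p below 0.05), 24.4% as higher in the KO-labelled libraries and 23.3% as lower. Summed FPKM was 629442 to 638120 in the KO-labelled libraries and 600844 to 609178 in the WT-labelled libraries. Depth relative to WT replicate 1 was estimated at 0.671 and 0.743 in the KO-labelled libraries and 0.768 in WT replicate 2, so WT replicate 1 was the deepest library. All 14 epithelial and colon markers examined, among them Epcam and Cdh1, had a mean under 1 FPKM, so this list does not show the epithelial identity in the cell line's name. In bulk RNA, fewer cells of a type and less RNA per cell cannot be told apart. The sum of 15 leukocyte markers was 3.32 and 2.72 FPKM in the KO-labelled libraries and 10.4 and 13.3 FPKM in the WT-labelled libraries, with 6 of the 15 at 0 in every library, among them Itgam, Adgre1 and Cd3e, and most of the sum from Cd68, S100a8 and Cd79a. Fibroblast and endothelial markers summed over 10 genes to 20.5 and 21.1 FPKM (KO) against 45.5 and 41.4 FPKM (WT), with Kdr at 0 throughout and Pecam1 near 0. That list did not move one way: of its 5 tested genes Col3a1 and Dcn were called lower, Col1a1 was called higher, and Pdgfra and Pdgfrb were not called. The part of these markers in the results below was not tested.

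The mitophagy receptors Bnip3 and Bnip3l rose in the KO-labelled libraries, while 25 of the 38 genes gave no call. Of the 38 genes, 9 were called higher and 4 lower, which is 34.2% against the 47.6% called among all tested genes. The higher share, 23.7%, lay near the background of 24.4%, and the lower share was 10.5% against 23.3%. The median log2 change over the 38 genes was 0.035, beside 0.0056 over all tested genes, and the median absolute log2 change was 0.12 beside 0.18. Apart from Bnip3 (1.35) and Bnip3l (0.60), no member reached an absolute log2 change of 0.5. The groups did not overlap for 28 of the 38 genes (73.7%), against 77.5% of all tested genes. The KO-labelled values were the higher ones for 18 members, against 39.4% of all tested genes, and the lower ones for 10, against 38.2%. Without WT replicate 1, 4 members were called higher and 4 lower. The median level of the members was 16.5 FPKM, against 14.6 FPKM for all tested genes.

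**Figure D1:**
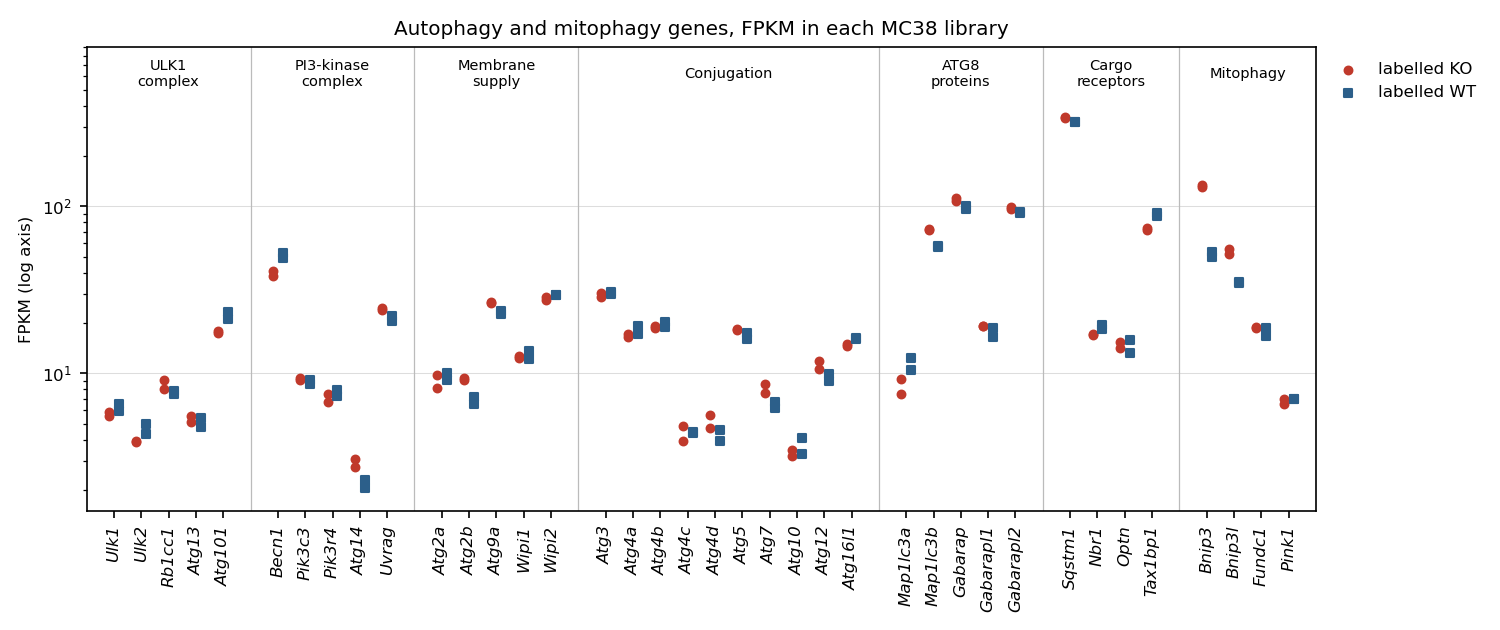
FPKM of each of the 38 genes in each library on a log axis, grouped by role, with circles for the KO-labelled libraries and squares for the WT-labelled libraries. Sqstm1 is the highest gene at 319 to 344 FPKM and Atg14 the lowest at 2.04 to 3.08 FPKM, and Bnip3 shows the widest gap between the groups.

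Promoter windows from RefSeq (build GRCm38.p6, the assembly that mm10 denotes) were available for 31 of the 38 genes, in 35 windows of 300 bases from 250 before to 50 after a transcription start. Atg12, Atg16l1, Becn1, Bnip3l, Map1lc3a, Pik3c3 and Rb1cc1 had no entry. Bnip3l, a called receptor, and Map1lc3a, the ATG8 gene with the largest absolute log2 change, could therefore not be shown. In the printed sequences every match to the hypoxia-inducible factor core ACGTG, on either strand, is in capitals. The windows shown are those of the called receptors with an entry (Bnip3, Sqstm1 and Tax1bp1) and of Map1lc3b, the most clearly called ATG8 gene. They lie at chr7:138909457-138909756 on the minus strand (Bnip3), chr8:121590188-121590487 on the plus strand (Map1lc3b), chr11:50210771-50211070 on the minus strand (Sqstm1) and chr6:52713915-52714214 on the plus strand (Tax1bp1, the downstream of its 2 windows), each printed 5′ to 3′ along the gene.
Bnip3: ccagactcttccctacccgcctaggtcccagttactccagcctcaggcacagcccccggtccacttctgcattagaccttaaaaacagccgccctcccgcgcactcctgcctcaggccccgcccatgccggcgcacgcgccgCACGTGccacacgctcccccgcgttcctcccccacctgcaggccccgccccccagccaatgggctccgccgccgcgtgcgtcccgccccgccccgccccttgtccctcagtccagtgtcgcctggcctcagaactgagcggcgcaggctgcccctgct
Map1lc3b: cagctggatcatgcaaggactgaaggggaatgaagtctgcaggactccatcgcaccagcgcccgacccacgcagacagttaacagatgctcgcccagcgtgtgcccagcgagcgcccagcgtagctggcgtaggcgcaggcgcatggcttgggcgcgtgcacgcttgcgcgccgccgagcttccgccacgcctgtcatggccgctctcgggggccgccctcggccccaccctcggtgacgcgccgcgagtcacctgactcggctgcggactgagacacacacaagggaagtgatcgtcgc
Sqstm1: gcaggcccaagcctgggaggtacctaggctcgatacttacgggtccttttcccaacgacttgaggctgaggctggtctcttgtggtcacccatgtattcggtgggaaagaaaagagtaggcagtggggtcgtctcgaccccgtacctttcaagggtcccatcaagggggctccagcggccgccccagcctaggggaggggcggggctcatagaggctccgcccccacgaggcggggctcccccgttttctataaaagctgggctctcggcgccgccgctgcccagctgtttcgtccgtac
Tax1bp1: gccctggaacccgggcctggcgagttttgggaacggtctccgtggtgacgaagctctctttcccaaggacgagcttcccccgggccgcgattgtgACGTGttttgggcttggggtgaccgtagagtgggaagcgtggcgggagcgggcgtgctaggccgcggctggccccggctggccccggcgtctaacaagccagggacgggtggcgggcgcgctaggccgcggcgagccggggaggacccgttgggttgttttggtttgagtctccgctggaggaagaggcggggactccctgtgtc

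In the Bnip3 window the capitals form 1 CACGTG, which reads the same on both strands and so holds 2 overlapping ACGTG matches, the first starting 108 bases before the start site. The printed Tax1bp1 window held 1 match starting 155 bases before its start site, while the other Tax1bp1 window, at chr6:52713479-52713778, held none. The Map1lc3b and Sqstm1 windows held none of these letters either. Over all members, ACGTG was found in 16 of 35 windows (45.7%), against 26.3% of the 10611 windows of tested genes and 19.6% of all 32851 windows. Counted by gene and not by window, ACGTG was found for 16 of the 31 members with an entry. These were 6 of the 8 called higher, both of the called lower, and the uncalled Atg14, Atg3, Atg4a, Atg4c, Atg5, Gabarapl2, Nbr1 and Pik3r4. The shares over all tested genes were taken by window only, so these counts by gene have no background. A link between the motif and the calls was not tested. For Tax1bp1, Atg4a, Atg4c and Nbr1 it was in only 1 of 2 windows. The E-box CACGTG, which contains ACGTG, was in 5 of 35 member windows (14.3%), against 10.2% of the windows of tested genes and 7.15% of all windows. Those 5 windows belonged to Atg14, Atg3, Atg5, Atg7 and Bnip3. The only Atg7 window, at chr6:114670846-114671145, lies inside the gene, which starts at 114643097 on the plus strand. It is also counted among the 6 called higher with ACGTG. The antioxidant response element TGACNNNGC was in 4 windows (11.4%, against 14.4% and 12.4%), those of Atg13, Map1lc3b, Tax1bp1 and Ulk2. The ATF4 element TGATGNAA was in none of the 35, against 2.17% of the windows of tested genes and 3.97% of all windows. These are matches of letters on both strands and not sites of binding.

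Bnip3, which recruits autophagosomes to mitochondria by binding LC3, was at 130 and 134 FPKM in the KO-labelled libraries, against 49.7 and 53.1 FPKM in the WT-labelled libraries. Both libraries labelled KO lay far above both WT-labelled ones, and the means differed 2.57-fold. The log2 change of 1.35 ± 0.042 (SE; adjusted p = 8.33e-05 with limma) ranked 194 of 10827 tested genes by absolute size. Bnip3l, its paralog and the receptor that clears mitochondria from maturing red cells, was at 51.5 and 55.2 FPKM (KO) against 35.4 and 34.5 FPKM (WT). It rose 1.53-fold, with a log2 change of 0.60 ± 0.045 (SE; adjusted p = 0.000664 with limma), and the groups did not overlap. Together the paralogs summed to 182 and 189 FPKM in the KO-labelled libraries and 85.0 and 87.6 FPKM in the WT-labelled libraries. Bnip3 made up 71.7% and 70.8% of that sum in the KO-labelled libraries, against 58.4% and 60.7% in the WT-labelled libraries. Bnip3 lies on chromosome 7 from 138890836 to 138909519 and Bnip3l on chromosome 14 from 66985239 to 67008877, both on the minus strand (GRCm38). GENCODE release M21 lists a pseudogene, Bnip3l-ps, whose values were not analysed here, so shared reads could affect Bnip3l.

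The other mitophagy genes gave no call. Fundc1, a further receptor of the outer mitochondrial membrane, was at 18.9 and 18.6 FPKM in the KO-labelled libraries against 18.6 and 16.7 FPKM in the WT-labelled libraries, values that nearly touch (log2 change 0.088 ± 0.063, SE; adjusted p = 0.289 with limma). Pink1, the kinase that marks damaged mitochondria for removal, was at 7.02 and 6.53 FPKM (KO) against 7.02 and 7.0 FPKM (WT), and the groups overlapped. Its log2 change was -0.044 ± 0.065 (SE; adjusted p = 0.601 with limma).

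**Figure D2:**
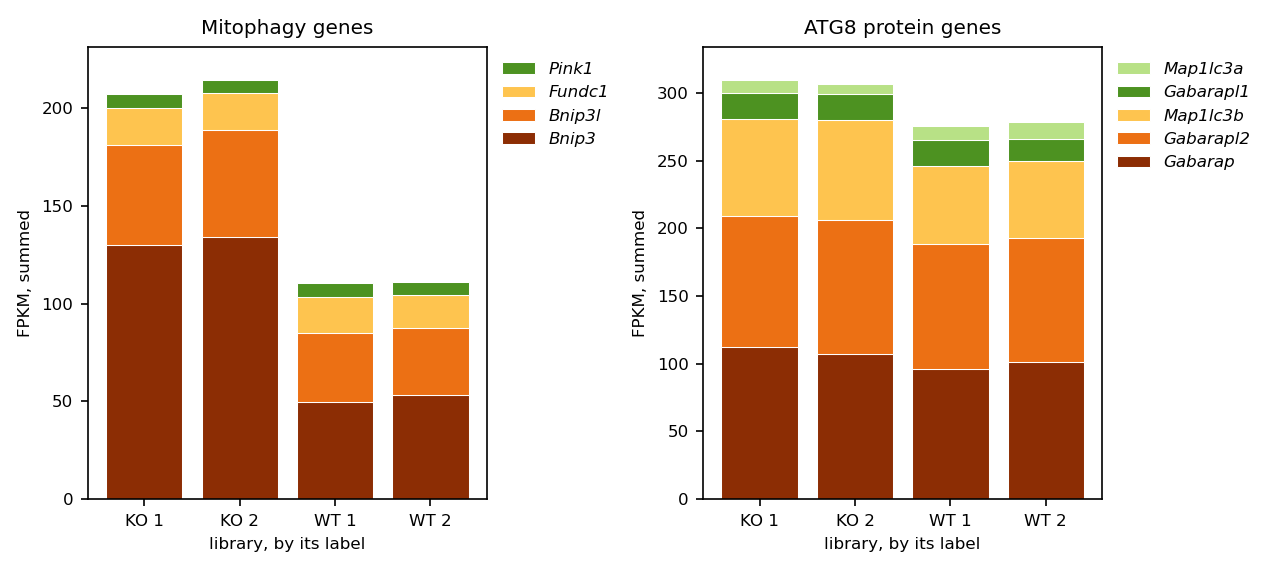
Summed FPKM in each library of the 4 mitophagy genes (left) and of the 5 ATG8 genes (right), each bar 1 library. The Bnip3 and Bnip3l segments sum to 182 and 189 FPKM in the KO-labelled libraries against 85.0 and 87.6 FPKM in the WT-labelled libraries, while the ATG8 bars differ far less, at 309 and 306 FPKM (KO) against 275 and 278 FPKM (WT).

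Among the 5 ATG8 genes, which encode the proteins coupled to the autophagosome membrane, 2 rose and 1 fell (60.0% called, against 47.6% of all tested genes). Map1lc3b, which encodes LC3B, was at 72.0 and 73.5 FPKM in the KO-labelled libraries against 57.9 and 57.2 FPKM in the WT-labelled libraries. The replicates lay close together and the log2 change was 0.33 ± 0.031 (SE; adjusted p = 0.00126 with limma). Its sister gene Map1lc3a (LC3A) went the other way, with 9.21 and 7.5 FPKM (KO) against 10.5 and 12.3 FPKM (WT). The spread within each group was wide here, and the log2 change was -0.41 ± 0.12 (SE; adjusted p = 0.0362 with limma). This call was lost without WT replicate 2 (adjusted p = 0.150 with limma) and without KO replicate 2 (0.109). Map1lc3b made up 88.7% and 90.7% of the LC3 sum in the KO-labelled libraries and 84.7% and 82.3% in the WT-labelled libraries.

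Gabarap, the most abundant ATG8 gene, was at 112 and 107 FPKM in the KO-labelled libraries against 96.0 and 101 FPKM in the WT-labelled libraries. The groups did not overlap, and the log2 change was 0.15 ± 0.039 (SE; adjusted p = 0.0268 with limma). It did not pass without WT replicate 1 (adjusted p = 0.114 with limma) or KO replicate 1 (0.0999). Gabarapl2, which also acts in transport through the Golgi, was at 96.7 and 99.2 FPKM (KO) against 92.3 and 91.5 FPKM (WT) and just missed the threshold (log2 change 0.091 ± 0.030, SE; adjusted p = 0.0544 with limma). It was called with upper-quartile scaling (adjusted p = 0.0428 with limma). Gabarapl1 was at 19.2 and 19.3 FPKM (KO) against 18.6 and 16.5 FPKM (WT), and its difference did not pass the test (adjusted p = 0.152 with limma). Summed over the 5 genes, the level was 309 and 306 FPKM in the KO-labelled libraries against 275 and 278 FPKM in the WT-labelled libraries, a ratio of means of 1.11.

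Of the 4 cargo receptors, 1 rose and 1 fell, 25.0% each way, near the shares of 24.4% and 23.3% of all tested genes. Sqstm1 encodes p62, which collects ubiquitylated cargo and is itself degraded by autophagy, and its mRNA was the most abundant of the 38. It was at 340 and 344 FPKM in the KO-labelled libraries against 319 and 322 FPKM in the WT-labelled libraries, a log2 change of 0.091 ± 0.024 (SE; adjusted p = 0.030 with limma). That is a difference of 1.07-fold between means, and the call was lost whichever library was left out, be it WT replicate 1 (adjusted p = 0.111 with limma), WT replicate 2 (0.0851), KO replicate 1 (0.0788) or KO replicate 2 (0.122). Tax1bp1, a receptor that also restrains inflammatory signalling, fell to 74.5 and 72.3 FPKM in the KO-labelled libraries, against 90.8 and 87.8 FPKM in the WT-labelled libraries. Its log2 change was -0.28 ± 0.034 (SE; adjusted p = 0.00264 with limma), and the groups were well apart. Nbr1, a partner of p62, was at 17.3 and 17.0 FPKM (KO) against 18.3 and 19.4 FPKM (WT) (adjusted p = 0.0787 with limma). Optn, the mitophagy and bacterial autophagy receptor optineurin, was at 15.3 and 14.2 FPKM (KO) against 13.3 and 15.8 FPKM (WT), and its groups overlapped. The summed level of the 4 receptors was 447 and 447 FPKM in the KO-labelled libraries and 442 and 445 FPKM in the WT-labelled libraries, so the rise of Sqstm1 and the fall of Tax1bp1 nearly offset each other in that sum.

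**Figure D3:**
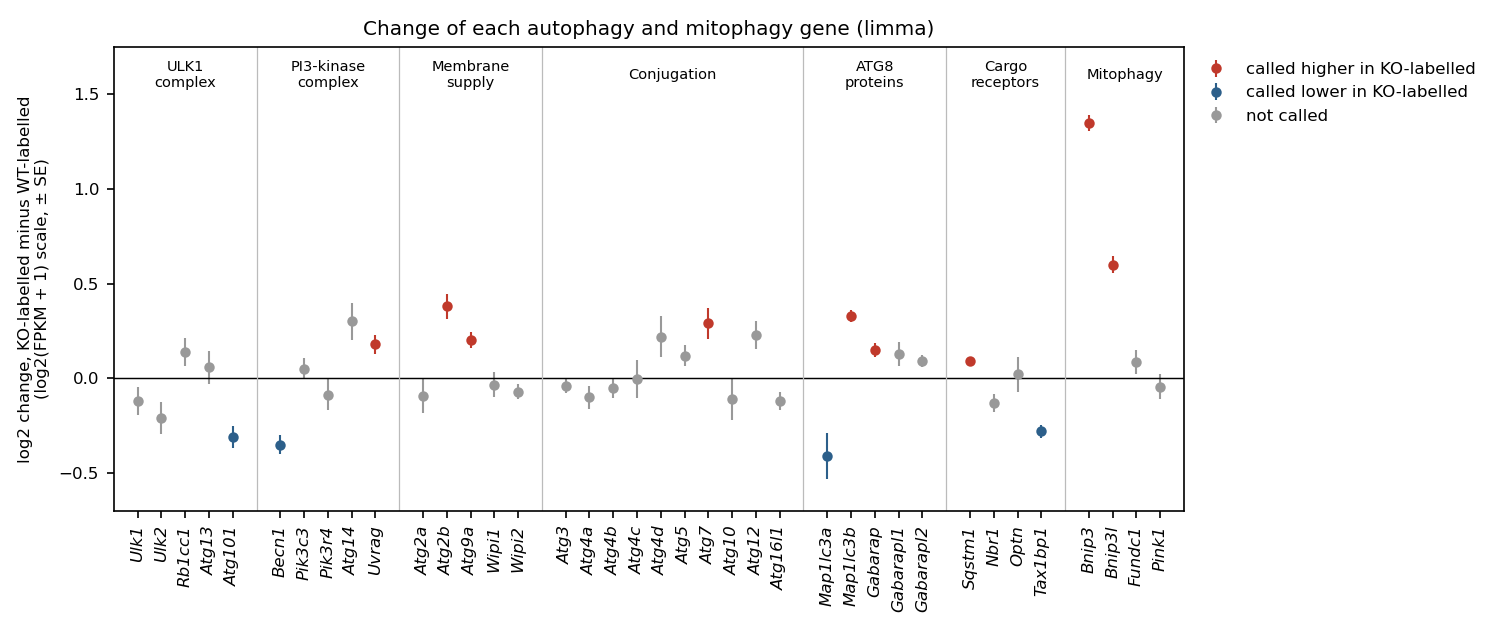
Log2 change of each of the 38 genes, KO-labelled minus WT-labelled, on the log2(FPKM + 1) scale, with bars for the SE from limma and colours for the call. Bnip3 (1.35) and Bnip3l (0.60) stand above all other members, which lie between -0.41 and 0.38.

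In the ULK1 complex, which receives nutrient signals from mTORC1 and AMPK, 1 of 5 members fell and 0 rose. The shares of all tested genes were 23.3% called lower and 24.4% called higher, so 1 lower call among 5 lies near the background. Atg101, which stabilises ATG13 in the complex, was at 17.8 and 17.5 FPKM in the KO-labelled libraries against 23.2 and 21.2 FPKM in the WT-labelled libraries. The groups were separate, with a log2 change of -0.31 ± 0.056 (SE; adjusted p = 0.00867 with limma). The kinases Ulk1 (KO 5.57 and 5.83, WT 5.97 and 6.57 FPKM) and Ulk2 (KO 3.92 and 3.86, WT 4.35 and 4.95 FPKM) also had both KO-labelled values below both WT-labelled ones, as did 38.2% of all tested genes. Neither kinase passed the test (adjusted p = 0.233 and 0.0931 with limma). Rb1cc1, the scaffold FIP200, was at 9.08 and 8.05 FPKM (KO) against 7.52 and 7.83 FPKM (WT) (adjusted p = 0.177 with limma). Atg13 was at 5.57 and 5.07 FPKM (KO) against 5.39 and 4.77 FPKM (WT), with overlapping groups.

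Of the 5 members of the PI3-kinase complex, 1 was called higher and 1 lower, near the shares of 24.4% and 23.3% of all tested genes. Becn1 encodes beclin 1, the scaffold that BCL2 proteins bind and hold inactive, and it was at 41.1 and 38.2 FPKM in the KO-labelled libraries against 52.4 and 49.3 FPKM in the WT-labelled libraries. Its fall, a log2 change of -0.35 ± 0.052 (SE; adjusted p = 0.00486 with limma), was clear of the spread within the groups. Uvrag, the subunit of the complex that acts on endosomes and autophagosome maturation, was at 23.9 and 24.5 FPKM (KO) against 20.5 and 22.0 FPKM (WT). It was called higher with a log2 change of 0.18 ± 0.050 (SE; adjusted p = 0.0347 with limma), but not without WT replicate 1 (adjusted p = 0.155), KO replicate 1 (0.0713) or KO replicate 2 (0.117). Atg14, the subunit that directs the complex to nascent autophagosomes and the alternative to UVRAG, was the lowest of the 38 at 2.73 and 3.08 FPKM (KO) against 2.29 and 2.04 FPKM (WT). Its log2 change of 0.30 ± 0.097 (SE) just missed the threshold (adjusted p = 0.0513 with limma), was called with upper-quartile scaling (0.0484) and with robust moderation of variances (0.0400), and is understated on this scale, since the means differed 1.34-fold. The catalytic subunit Pik3c3 (KO 9.37 and 9.16, WT 9.15 and 8.68 FPKM) and its regulatory subunit Pik3r4 (KO 6.73 and 7.52, WT 7.97 and 7.28 FPKM) were not called (adjusted p = 0.498 and 0.410 with limma).

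Of the 5 genes of membrane supply, 2 were called higher (40.0%, against 24.4% of all tested genes) and 0 lower (against 23.3%). Atg2b, which encodes a protein that moves lipids from the endoplasmic reticulum into the growing membrane, was at 9.41 and 9.16 FPKM in the KO-labelled libraries against 6.58 and 7.22 FPKM in the WT-labelled libraries. Its log2 change was 0.38 ± 0.067 (SE; adjusted p = 0.00802 with limma), while its paralog Atg2a overlapped between groups at 8.18 and 9.73 FPKM (KO) against 9.17 and 9.99 FPKM (WT). The share of Atg2b in the sum of both paralogs was 53.5% and 48.5% in the KO-labelled libraries and 41.8% and 42.0% in the WT-labelled libraries. Atg9a, the lipid scramblase carried by small vesicles, was at 26.7 and 26.5 FPKM (KO) against 22.5 and 23.5 FPKM (WT), a log2 change of 0.20 ± 0.042 (SE; adjusted p = 0.0134 with limma) that did not pass without WT replicate 1 (adjusted p = 0.0741 with limma). The lipid readers Wipi1 (KO 12.6 and 12.3, WT 13.5 and 12.1 FPKM) and Wipi2 (KO 27.6 and 28.6, WT 29.5 and 29.6 FPKM) did not pass the test (adjusted p = 0.696 and 0.197 with limma).

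The conjugation systems gave 1 call among 10 genes, against 47.6% called of all tested genes. Atg7, the E1-like enzyme that activates both ATG12 and the ATG8 proteins, was at 7.66 and 8.62 FPKM in the KO-labelled libraries against 6.76 and 6.21 FPKM in the WT-labelled libraries. Its log2 change was 0.29 ± 0.081 (SE; adjusted p = 0.0346 with limma), and the call was lost without WT replicate 1 (adjusted p = 0.0648) or 2 (0.148), or without KO replicate 2 (0.124). Atg12, the ubiquitin-like protein joined to ATG5, was at 11.8 and 10.6 FPKM (KO) against 9.83 and 9.03 FPKM (WT) and missed the threshold (log2 change 0.23 ± 0.074, SE; adjusted p = 0.0551 with limma). It was called without KO replicate 2 (adjusted p = 0.0471), with robust moderation (0.0398) and with upper-quartile scaling (0.0496). Its partners Atg5 (KO 18.5 and 18.1, WT 16.1 and 17.5 FPKM) and Atg16l1 (KO 14.5 and 15.0, WT 16.2 and 16.0 FPKM) lay on opposite sides of their WT-labelled values without a call (adjusted p = 0.137 and 0.0904 with limma). The E2-like enzymes Atg3, for the ATG8 proteins, and Atg10, for ATG12, both overlapped between groups, at 30.1 and 28.8 FPKM (KO) against 30.5 and 30.0 FPKM (WT) and at 3.47 and 3.19 FPKM (KO) against 4.09 and 3.27 FPKM (WT).

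The ATG4 proteases, which trim ATG8 proteins before coupling and release them afterwards, were 4 of these 10 genes. None was called, against 47.6% of all tested genes. Atg4a was at 17.1 and 16.6 FPKM in the KO-labelled libraries against 19.1 and 17.2 FPKM in the WT-labelled libraries. Atg4b, the most active of them, was at 19.2 and 18.6 FPKM (KO) against 20.3 and 18.9 FPKM (WT), and Atg4c at 4.85 and 3.95 FPKM (KO) against 4.43 and 4.36 FPKM (WT). Atg4d had separate groups, at 5.59 and 4.72 FPKM (KO) against 4.60 and 3.95 FPKM (WT), and the lowest adjusted p of the 4 (limma, 0.141). Their sum was 46.7 and 43.9 FPKM in the KO-labelled libraries and 48.4 and 44.4 FPKM in the WT-labelled libraries, with overlapping groups.

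**Figure D4:**
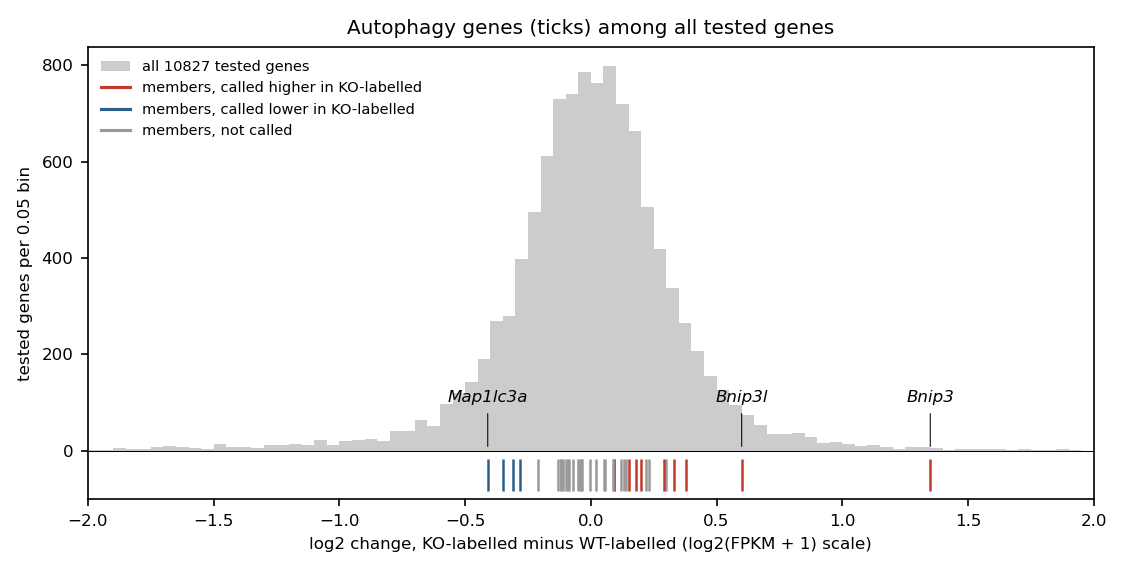
Histogram of the log2 changes of all 10827 tested genes between -2 and 2 (libraries labelled KO minus libraries labelled WT, bins of 0.05), with 1 tick below the axis for each of the 38 genes coloured by call. The ticks crowd near 0, with a median of 0.035, and Bnip3l (0.60) and Bnip3 (1.35) lie apart to the right.

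The 7 members called under every alternative that tested them were Bnip3, Bnip3l, Map1lc3b and Atg2b, all higher, and Becn1, Tax1bp1 and Atg101, all lower. Their largest adjusted p over those alternatives was 0.0414 (limma), that of Atg2b. With no filter on low values, Uvrag (adjusted p = 0.0535), Atg7 (0.0690) and Map1lc3a (0.0736) were not called by limma. Becn1 lies on chromosome 11 from 101285952 to 101302286, Map1lc3b on chromosome 8 from 121590361 to 121598760 and Tax1bp1 on chromosome 6 from 52713729 to 52766780 (GRCm38). The exons of 14 of the 38 genes overlap those of another gene in GENCODE release M21, mostly on the opposite strand, and the authors' handling of strand is not given in the sources used here. Map1lc3b overlaps Zcchc14, which was at 10.5 and 10.6 FPKM in the KO-labelled libraries against 12.6 and 12.1 FPKM in the WT-labelled libraries, opposite in direction to Map1lc3b. Atg2b overlaps Gskip (KO 6.78 and 6.82, WT 6.86 and 6.62 FPKM) and Becn1 overlaps Cntd1, which was below 0.4 FPKM in all libraries. The overlapping partners of Bnip3 and Tax1bp1 are predicted genes whose values were not analysed here.

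Further genes of the pathway were taken from 6 lists, of which 71 symbols beyond the members were listed and 69 passed the filter. Of these, 16 were called higher and 10 lower (37.7%, against 47.6% of all tested genes), with a median log2 change of 0.030. Without WT replicate 1 the numbers were 10 and 7, without WT replicate 2 they were 12 and 6, and without KO replicate 2 they were 10 and 6. In the transcriptional regulators, 5 of 11 rose and 1 fell (54.5% called). Atf4, which activates autophagy genes in amino acid stress, was at 400 and 403 FPKM in the KO-labelled libraries against 193 and 198 FPKM in the WT-labelled libraries (log2 change 1.03 ± 0.026, SE; adjusted p = 4.24e-05 with limma). Its partner Ddit3 (CHOP) rose by 1.00 ± 0.11 (SE; adjusted p = 0.0021 with limma). Hif1a, a subunit of the factor known to induce BNIP3 in hypoxia, was at 69.6 and 67.5 FPKM (KO) against 54.7 and 54.5 FPKM (WT) (log2 change 0.32 ± 0.033, SE; adjusted p = 0.00154 with limma). Among the factors that drive lysosome and autophagy genes together, Tfe3 was at 37.7 and 39.1 FPKM (KO) against 28.9 and 31.0 FPKM (WT) (adjusted p = 0.00381 with limma), Mitf fell to 1.43 and 1.26 FPKM (KO) against 2.35 and 2.61 FPKM (WT) (adjusted p = 0.00815 with limma), and Tfeb was not called at 9.04 and 9.15 FPKM (KO) against 8.88 and 8.59 FPKM (WT) (adjusted p = 0.465 with limma). Hif1a, Tfe3 and Tfeb were named after their values were seen.

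Genes of fusion with the lysosome rose in 5 and fell in 1 of 14 cases (42.9% called, against 47.6% of all tested genes). Those that rose were Vps39, Vps18, Vps16 and Vps41 of the HOPS tethering complex and the syntaxin Stx17, with Vps16 and Vps41 named after their values were seen. The HOPS genes Vps11 (log2 change 0.014) and Vps33a (0.17), also named after their values were seen, were not called (adjusted p = 0.850 and 0.0986 with limma). Vps39 was at 7.72 and 6.89 FPKM in the KO-labelled libraries against 5.10 and 4.93 FPKM in the WT-labelled libraries (log2 change 0.46 ± 0.076, SE; adjusted p = 0.00656 with limma). Stx17, the autophagosomal syntaxin, was at 5.11 and 4.94 FPKM (KO) against 3.8 and 3.67 FPKM (WT) (0.35 ± 0.070, SE; adjusted p = 0.0127 with limma), and did not pass without WT replicate 2 (adjusted p = 0.0640 with limma) or KO replicate 1 (0.0506). Vps18 (log2 change 0.36; limma, adjusted p = 0.0223) lost its call without WT replicate 1 (0.0904), KO replicate 1 (0.0604) or KO replicate 2 (0.0751), and Vps41 (0.28; limma, adjusted p = 0.0381) without WT replicate 1 (0.153) or 2 (0.0525), or without KO replicate 1 (0.126). Vps16 rose by 0.34 (adjusted p = 0.00446 with limma). Vps39, Vps18 and Vps16 lie on chromosome 2, of whose 868 tested genes 54.4% were called higher and 9.45% lower, with a median log2 change of 0.22 against -0.012 for the tested genes elsewhere. Of the fusion genes elsewhere, 2 of 11 were called higher (18.2%, against 21.8% of the tested genes elsewhere). Bcl2l1, a beclin 1 inhibitor that rose by 0.33, is also on chromosome 2 and did not pass without WT replicate 1 (adjusted p = 0.0522 with limma) or KO replicate 2 (0.0617). The part of the chromosome in these calls was not tested. Among the 38 members only Atg13, Map1lc3a and Optn are on chromosome 2, and none of the 3 rose.

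The list of PI3-kinase regulators, which also holds other factors of autophagosome formation such as Vmp1, included 2 called genes besides Bcl2l1, both lower. Nrbf2, a subunit that binds ATG14, was at 9.28 and 9.36 FPKM in the KO-labelled libraries against 12.8 and 12.6 FPKM in the WT-labelled libraries, a log2 change of -0.41 ± 0.050 (SE; adjusted p = 0.00258 with limma). Vmp1, a lipid scramblase of the endoplasmic reticulum needed for autophagosome formation, was at 24.5 and 23.2 FPKM (KO) against 32.5 and 30.2 FPKM (WT) (-0.38 ± 0.054, SE; adjusted p = 0.00406 with limma). The groups did not overlap for either gene, which held for 77.5% of all tested genes. Of the 10 genes of this list, 1 was called higher and 2 lower (30.0% called, against 47.6% of all tested genes), with a median log2 change of 0.061. Within the complex itself, Becn1 was called lower and Uvrag higher. Of 19 tested further mitophagy genes, 3 rose and 3 fell (31.6% called). Nipsnap2, a mitochondrial protein that displays damage to autophagy receptors, was at 7.71 and 8.20 FPKM (KO) against 4.75 and 4.76 FPKM (WT) (log2 change 0.64 ± 0.065, SE; adjusted p = 0.00155 with limma). Calcoco1, a relative of the receptor NDP52, was at 4.46 and 4.88 FPKM (KO) against 6.22 and 6.91 FPKM (WT) (-0.41 ± 0.082, SE; adjusted p = 0.0118 with limma) and did not pass without WT replicate 2 (adjusted p = 0.0634 with limma). Tbk1, the kinase that activates optineurin, was called at 0.22 (adjusted p = 0.0388 with limma), but not without WT replicate 2 (0.167), KO replicate 1 (0.0600) or KO replicate 2 (0.137).

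Of 10 receptors of the endoplasmic reticulum and other selective cargo, 1 rose, 3 fell and 6 were not called (40.0% called, against 47.6% of all tested genes). Retreg1 (FAM134B), a receptor for sheets of the endoplasmic reticulum, was at 15.7 and 16.3 FPKM in the KO-labelled libraries against 12.1 and 13.1 FPKM in the WT-labelled libraries (log2 change 0.32 ± 0.056, SE; adjusted p = 0.00801 with limma). Ccpg1, another receptor of that organelle, was at 7.75 and 6.93 FPKM (KO) against 10.6 and 11.8 FPKM (WT) (-0.54 ± 0.082, SE; adjusted p = 0.00491 with limma). Ncoa4, which carries ferritin to the lysosome, was at 28.8 and 28.4 FPKM (KO) against 34.7 and 36.9 FPKM (WT) (-0.31 ± 0.044, SE; adjusted p = 0.00397 with limma). In each of these 3 the groups did not overlap, as in 7 of the 10 genes of the list (70.0%) and 77.5% of all tested genes. Of the further paralogs, only Wdr45b of the 5 tested was called (log2 change 0.17; limma, adjusted p = 0.0477), and not without WT replicate 1 (0.111) or 2 (0.172), or without KO replicate 2 (0.144). With no filter on low values, Wdr45b (adjusted p = 0.0763), Tbk1 (0.0674) and Vps41 (0.0711) were not called by limma.

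**Figure D5:**
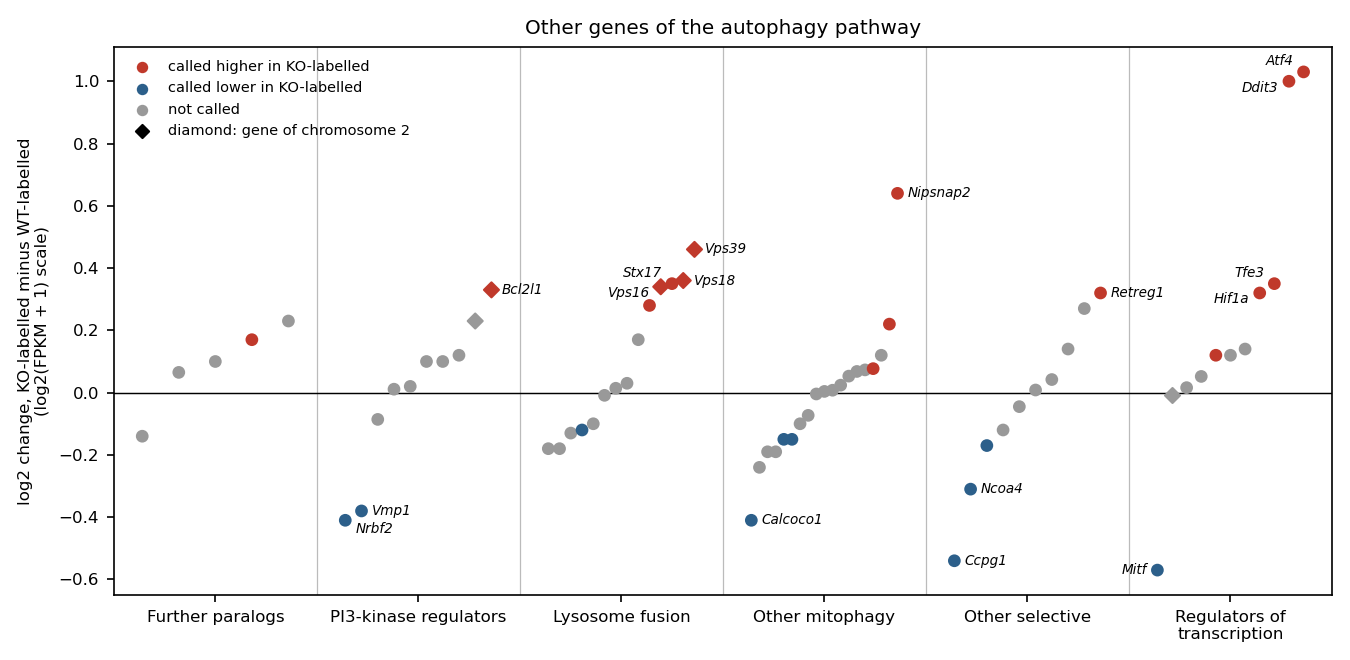
Log2 change (libraries labelled KO minus libraries labelled WT, log2(FPKM + 1) scale) of the 69 tested genes in 6 further lists of the pathway, 1 point a gene, coloured by call, with diamonds for genes of chromosome 2. Atf4 (1.03), Ddit3 (1.00) and Nipsnap2 (0.64) are the highest, and Vps39, Vps18, Vps16 and Bcl2l1 are called diamonds.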

How the data were processed

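Polyadenylated RNA of MC38 cells was sequenced in 4 libraries made with a stranded TruSeq kit, per the labels' protocols; KPC cells, named in the design, were not analysed here. The authors deposited FPKM values per gene symbol, and the submitters' processing notes name mm10, Cufflinks 2.2.1, TopHat2 2.0.13, SAMtools 0.1.19 and Bowtie2 2.2.3. Settings, gene annotation and strand handling are not given in the sources used here.

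Values were transformed to log2(FPKM + 1), a scale that understates changes of low genes, and genes averaging 1 FPKM or more were fitted with limma 3.58.1 in R 4.3.3 (lmFit, eBayes with a trend, no block, two-sided, Benjamini-Hochberg over all 10827 genes). A call is an adjusted p under 0.05. Relative depth came from values at or below 0.1 FPKM, where 90.8% to 91.9% of the ratios matched whole numbers no larger than 6 to within 1%. Total fragments are unknown, and no count test was run because what 1 fragment is worth in FPKM depends on each gene's length. Older symbols were matched through RefSeq synonyms and a separate list of aliases. The procedure was tested on simulated data. Python 3.11.15, numpy 2.4.6, pandas 2.3.3 and matplotlib 3.10.9 were used.

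The members and lists were chosen with earlier results of these data known. Named genes were all members, Arid5a and up to 3 called genes with the largest change in each further list; others are marked in the text. Alternatives covered the pseudocount, filter, scaling, moderation, replicate block and the omission of each library.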

Additional observations from a re-analysis of the deposited data

How the results depend on the processing

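Members called higher and lower were 9 and 4, and ranged over the omission of each library from 4 to 7 and from 3 to 4. The further pathway genes, 16 and 10, ranged from 10 to 12 and from 6 to 10. All genes called, 2641 higher and 2518 lower, ranged from 1770 to 2051 and from 1607 to 2082. A fit without a library leaves 1 library in its group, which is assumed to vary like the others. With the replicate number as a block, 8 members were higher and 3 lower (10 of the 13 calls held, those of Atg7, Map1lc3a and Gabarap did not, and Atg12 was added), 12 and 10 further genes (Wdr45b, Tbk1 and Vps41, of those named, lost their calls at adjusted p = 0.0749, 0.0749 and 0.0821 with limma), and 2369 and 2304 of all genes. The labels do not say that a number marks a shared culture or day, and deviations of same-numbered libraries correlated at 0.138 across genes. Without chromosome 2, chosen after seeing the data, 9 members were higher and 3 lower. With no filter, members numbered 7 and 3, and with upper-quartile scaling 12 and 4. Median log2 change over all genes stayed within 0.00079 to 0.012 in every one of these settings except the removal of chromosome 2, where it was -0.012.

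Changes of sign occurred only for uncalled members near 0. Over the omission of each library, log2 changes ranged from -0.017 to 0.13 for Atg13, -0.20 to 0.022 for Atg2a, -0.11 to 0.041 for Wipi1, -0.10 to 0.00017 for Atg4b, -0.12 to 0.12 for Atg4c, -0.23 to 0.018 for Atg10, -0.10 to 0.13 for Optn and -0.09 to 0.0021 for Pink1. Atg4c was also at 0.0041 with upper-quartile scaling. Of 649 values of single genes under alternatives, 586 kept their direction and their side of the threshold, 44 lost a call, 7 gained one and 12 changed sign. The cause was not tested. With 2 libraries a group, small changes rest on few values.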
